A study of Mus musculus with 35 samples.

Results

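CXC chemokine ligands are small secreted proteins, apart from Cxcl16, which is anchored in the membrane, and they guide leukocytes through receptors of the Cxcr family. The 10 ligands described here were the gene symbols Cxcl1, Cxcl2, Cxcl5, Pf4, Cxcl9, Cxcl10, Cxcl12, Cxcl13, Cxcl14 and Cxcl16, taken by symbol from the 22609 symbols of each count table. Reads per gene were counted in 35 libraries of cells sorted from the hind paw skin of C57 mice aged 8 to 16 weeks. PTX males received paclitaxel (PTX), a microtubule-binding chemotherapy drug that can cause painful neuropathy, intraperitoneally at 2 mg/kg on 2 successive days, and their paws were sampled 6 days later. Vehicle females and vehicle males were the controls. There were PTX males, vehicle females and vehicle males for each of 3 populations, with 4 libraries in each group except for 3 of keratinocytes from vehicle males. The immune cells were sorted as CD45+ from wild-type mice, the fibroblasts by a tdTomato reporter under Col1a2-cre-ER, and the keratinocytes by a tdTomato reporter under K5-cre-ER. Both reporters mark only the cells in which an inducible Cre was active, so the fibroblast and keratinocyte libraries come from transgenic animals and the immune libraries do not. No females received PTX, so a PTX effect could be compared with the same sex in males only. Nothing in the labels ties a library to its own animal, so p-values measure the spread between libraries, which may in part be technical.

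Within the family, Cxcl1, Cxcl2 and Cxcl5 attract neutrophils through Cxcr2, a receptor also described on sensory neurons. Cxcl9 and Cxcl10 are induced by interferon and act through Cxcr3, and Pf4 (Cxcl4) is best known from platelet granules. Cxcl12 holds Cxcr4-bearing cells in tissue and is taken up by the scavenger receptor Cxcr7 (Ackr3). Cxcl13 attracts B cells through Cxcr5, Cxcl16 binds Cxcr6, and Cxcl14 is made by many resting epithelia.

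Levels are given as CPM, gene counts relative to the size of the library, scaled over all 35 libraries by the trimmed mean of M values (TMM). The gene counts came to 13847475 to 18979776 per immune library, 13359088 to 20809036 per fibroblast library and 988712 to 12055718 per keratinocyte library, the lowest being vehicle female 2. The sorts carried their defining transcripts. Ptprc, the gene of CD45, averaged 480 to 644 CPM over the 3 immune groups, Col1a2 averaged 4950 to 11200 CPM over the fibroblast groups and Krt5 averaged 1900 to 5020 CPM over the keratinocyte groups. Genes with more than 10 counts numbered 5956 to 8700 in immune libraries of PTX males, 10974 to 11036 in those of vehicle females and 11000 to 12813 in those of vehicle males. Markers of other cells moved with the groups. The keratinocyte libraries of PTX males held Col1a2 at 1970 ± 688 CPM and Ptprc at 156 ± 36.4 CPM, against 0.973 ± 0.129 and 0.432 ± 0.115 CPM in vehicle males (SD, n = 4 and 3). In immune libraries Col1a2 stood at 158 ± 97.5 CPM in PTX males, 18.5 ± 17.3 CPM in vehicle females and 802 ± 322 CPM in vehicle males (SD, n = 4 each). In bulk libraries such as these, fewer cells of a type and less RNA per cell cannot be told apart.

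The sequences just before the starts of 8 of the 10 ligand genes were found in the RefSeq promoter table (GRCm38.p6), each from 250 bases before the start to 50 bases after it. Cxcl5 and Cxcl16 were absent from it, so Cxcl16, also higher in immune cells of PTX males, could not be searched. The sequences of Cxcl1, Cxcl2 and Cxcl10 are shown 5′ to 3′ on the strand of the gene. Cxcl2 and Cxcl10 were both called higher in immune cells of PTX males than in those of vehicle males. Cxcl1 is a close relative of Cxcl2 and its neighbour, and did not pass there. Capitals mark matches to the NF-kB recognition motif kappa-B and, in Cxcl10 only, the first run of capitals marks a match to GAAANNGAA, the pattern of interferon-stimulated response elements; both motifs were searched on both strands. Cxcl1 lies on chr5:90890995-90891294 (+ strand), Cxcl2 on chr5:90903649-90903948 (+ strand) and Cxcl10 on chr5:92348840-92349139 (- strand).
Cxcl1: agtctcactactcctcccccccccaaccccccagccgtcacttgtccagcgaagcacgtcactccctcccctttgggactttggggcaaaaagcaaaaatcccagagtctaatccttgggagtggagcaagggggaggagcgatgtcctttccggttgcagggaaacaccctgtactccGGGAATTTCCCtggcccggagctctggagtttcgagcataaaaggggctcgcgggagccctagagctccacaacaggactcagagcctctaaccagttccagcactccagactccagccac
Cxcl2: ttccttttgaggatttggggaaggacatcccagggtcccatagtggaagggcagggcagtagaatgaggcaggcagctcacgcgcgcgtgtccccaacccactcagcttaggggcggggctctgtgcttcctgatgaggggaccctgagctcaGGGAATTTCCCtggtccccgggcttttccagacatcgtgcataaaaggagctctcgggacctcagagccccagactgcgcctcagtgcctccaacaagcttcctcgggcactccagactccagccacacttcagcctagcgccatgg
Cxcl10: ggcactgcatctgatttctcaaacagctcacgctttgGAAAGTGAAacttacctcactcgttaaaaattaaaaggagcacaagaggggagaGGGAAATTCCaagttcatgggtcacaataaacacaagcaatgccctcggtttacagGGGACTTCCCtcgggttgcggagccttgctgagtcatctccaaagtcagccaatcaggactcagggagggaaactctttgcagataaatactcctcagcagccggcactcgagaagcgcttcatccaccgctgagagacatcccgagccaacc
Cxcl1 and Cxcl2 each held the same kappa-B letters, read on both strands as overlapping matches, beginning 71 and 97 bases before the start. Cxcl10 held separate kappa-B matches beginning 159 and 103 bases before the start and the GAAANNGAA match at 213 bases before it. Of all 32851 promoters of 300 bases in the table, 4.51% held a kappa-B match and 8.56% held GAAANNGAA. Cxcl9 and Cxcl14 also held GAAANNGAA, and the promoters of Pf4, Cxcl9, Cxcl12, Cxcl13 and Cxcl14 held no kappa-B match in this window. The longest stretch common to any pair of the 8 promoters was one of 20 bases in Cxcl1 and Cxcl2, beyond the start of each gene. A match is a stretch of letters and no measure of binding.

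The first question was which population makes each ligand. In vehicle libraries the transcripts of Pf4, Cxcl2, Cxcl13 and Cxcl16 were higher in immune cells than in fibroblasts, and those of Cxcl1, Cxcl5, Cxcl12 and Cxcl14 were lower. Against keratinocytes, 7 ligands were higher in immune cells and 6 were higher in fibroblasts, and Cxcl14 alone was lower in immune cells. The fit was edgeR's quasi-likelihood test over the 23 vehicle libraries, with Benjamini-Hochberg adjustment over 14104 genes at 0.05. Of the 10 ligands, 4 were called higher and 4 lower in immune cells than in fibroblasts, where 13.3% and 7.91% of all genes tested were called. Immune cells against keratinocytes gave 7 higher and 1 lower, against 23.5% and 8.61% of all genes. Fibroblasts against keratinocytes gave 6 higher and none lower, against 20.6% and 10.5% of all genes (2908 higher and 1477 lower, or 2427 and 2115 with plain CPM); the count at an unadjusted p under 0.05 was also 6, DESeq2 called 7 and limma with voom 5.

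Among the neutrophil attractants, Cxcl1 was mainly a fibroblast transcript. It ranged from 224 to 859.9 CPM in the 8 immune vehicle libraries (median 515), from 1683 to 5368 CPM in the 8 fibroblast ones (median 3037) and from 0.432 to 138 CPM in the 7 keratinocyte ones (median 14.6). The populations did not overlap, and Cxcl1 was lower in immune cells than in fibroblasts, with a log2 fold change of -2.62 ± 0.74 (SE, adjusted p = 0.0122, edgeR). Cxcl2 had the other order. It ranged from 361 to 1009 CPM in immune cells, from 74.8 to 306 CPM in fibroblasts and from 0.188 to 5.81 CPM in keratinocytes, again with no overlap. Immune cells exceeded fibroblasts by 1.79 ± 0.46 on the log2 scale (adjusted p = 0.00625, edgeR), and immune cells and fibroblasts exceeded keratinocytes by 9.65 ± 0.74 and 7.86 ± 0.69 on that scale (adjusted p = 2.52e-10 and 3.15e-09). Neither difference between immune cells and fibroblasts passed in vehicle males alone (adjusted p = 0.252 for Cxcl1 and 0.23 for Cxcl2, edgeR). The Cxcl1 difference of immune cells from keratinocytes, 3.57 ± 0.83, was lost in vehicle males alone (adjusted p = 0.0862, edgeR) and with limma and voom (adjusted p = 0.44), and that of fibroblasts from keratinocytes, 6.19 ± 0.96, with voom (adjusted p = 0.269). Cxcl3, whose transcript shares 3.28% of the windows of 50 bases in Cxcl2, averaged 16.5 CPM in immune cells of vehicle females and 12.4 CPM in those of vehicle males. Reads that align to more than 1 place were set aside in the counts as not unique, so Cxcl2 could be slightly undercounted. Cxcl5 was the rarest of these ligands. It ranged from 0 to 50.7 CPM in immune cells, where 2 of 8 libraries had no count, and from 0.254 to 114 CPM in fibroblasts. No keratinocyte library had a count of Cxcl5, which allows up to 0.0413 CPM over the 7 vehicle libraries (3 counts over the group). The 50.7 CPM came from vehicle male 2, and the median was 0.111 CPM in immune cells and 27.4 CPM in fibroblasts. The Cxcl5 call of immune cells against keratinocytes was lost in vehicle males alone (adjusted p = 0.0576, edgeR), in vehicle females alone (adjusted p = 0.226) and with limma and voom (adjusted p = 0.121), and that of immune cells against fibroblasts in vehicle males alone (adjusted p = 0.843).

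Pf4 had the largest difference between immune cells and each of the other sorts among the 10 ligands. It ranged from 1947 to 4520 CPM in immune cells, from 3.77 to 25.7 CPM in fibroblasts and from 0.576 to 4.52 CPM in keratinocytes. The log2 difference of immune cells from fibroblasts was 8.36 ± 0.44 (adjusted p = 7.78e-13, edgeR), and that from keratinocytes was 11.31 ± 0.55. Limma with voom gave differences of 8.70 and 11.23 that did not pass (adjusted p = 0.152 and 0.308), nor did its 2.54 for fibroblasts minus keratinocytes (adjusted p = 0.884), called by edgeR at 2.94 ± 0.38. Markers of platelets, the classic source of the protein, were low in the same immune libraries: the 8 markers summed to 17.6 to 36.5 CPM in vehicle males and 50.3 to 70.9 CPM in vehicle females, and Gp1bb and Gp6 had no count in either group. The 10 macrophage markers summed to 14700 to 20000 CPM in vehicle males and 15400 to 28700 CPM in vehicle females. The 8 dendritic and Langerhans cell markers summed to 6290 to 10400 CPM and 7670 to 13500 CPM in these groups. The 8 mast cell markers summed to 1270 to 2590 CPM and 5500 to 8190 CPM. Which immune cells held the Pf4 transcripts was not tested. Genes whose 9 group means followed Pf4 most closely were Retnla, Cd83 and Laptm5, with a root mean square difference of centred log2(CPM + 1) of 0.31, 0.35 and 0.44.

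The interferon-induced ligands were scarce or shared. Cxcl10 ranged from 44.8 to 171 CPM in immune cells, from 97.4 to 193 CPM in fibroblasts and from 0.072 to 49.2 CPM in keratinocytes. Immune cells and fibroblasts overlapped and their difference did not pass, at -0.51 ± 0.63 on the log2 scale (95% interval -1.75 to 0.72, adjusted p = 0.701, edgeR). Against keratinocytes, both were called higher over the vehicle libraries, but in vehicle males alone neither passed (adjusted p = 0.502 for immune cells and 0.237 for fibroblasts, edgeR). Cxcl9 was found in few libraries, with a count in 4 of 8 immune, 3 of 8 fibroblast and 4 of 7 keratinocyte vehicle libraries and a highest value of 37.4 CPM in fibroblasts of vehicle male 1. Exons of Cxcl10 overlap those of Art3 on the opposite strand, and whether counting used strand is not given in the sources used here.

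Cxcl12 and Cxcl14 were the homeostatic ligands of the fibroblast libraries. Cxcl12 ranged from 18.8 to 657 CPM in immune cells, from 1707 to 6060 CPM in fibroblasts and from 2.1 to 111 CPM in keratinocytes, and fibroblasts stood above all other vehicle libraries. Immune cells were lower than fibroblasts, with a log2 fold change of -4.32 ± 0.61 (adjusted p = 8.86e-06, edgeR), and fibroblasts were higher than keratinocytes by 5.64 ± 0.72. Cxcl14 ranged from 0.533 to 49.2 CPM in immune cells, from 378 to 925 CPM in fibroblasts and from 106 to 1035 CPM in keratinocytes. It was thus the only ligand of the 10 called higher in keratinocytes than in immune cells (immune minus keratinocyte -4.96 ± 0.55, adjusted p = 1.45e-07, edgeR), and fibroblasts and keratinocytes overlapped (difference 0.78 ± 0.49, 95% interval -0.18 to 1.73, adjusted p = 0.247). The nearest genes in pattern over the 9 groups were Abcc9, Nfatc4 and Tfpi2 for Cxcl12 (0.41 to 0.42) and Adh1, Antxr1 and Gas1 for Cxcl14 (0.59 to 0.62).

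Cxcl13 and Cxcl16 were immune transcripts of different breadth. Cxcl13 ranged from 11.6 to 107 CPM in immune cells, from 0.0646 to 10.8 CPM in fibroblasts and from 0 to 0.753 CPM in keratinocytes, with no overlap between immune cells and the others. The log2 difference of immune cells from fibroblasts was 5.68 ± 1.22 (adjusted p = 0.00123, edgeR), and 3.37 in vehicle males alone (adjusted p = 0.238). Cxcl16 ranged from 179 to 414 CPM in immune cells, from 4.65 to 110 CPM in fibroblasts and from 0.496 to 81.4 CPM in keratinocytes. Immune cells were higher than fibroblasts by 2.73 ± 0.69 (adjusted p = 0.00538, edgeR) and than keratinocytes by 3.46 ± 0.77 (adjusted p = 0.00126), while fibroblasts and keratinocytes overlapped (0.73 ± 0.68, 95% interval -0.61 to 2.07). In vehicle males alone the Cxcl16 differences were 2.95 from fibroblasts and 2.76 from keratinocytes and did not pass (adjusted p = 0.164 and 0.184, edgeR). Exons of Cxcl16 overlap those of Zmynd15 on the opposite strand.

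Per kilobase of the longest coding transcript, the order of mean vehicle levels in immune cells began with Pf4 at 5400 CPM per kb, Cxcl1 at 568, Cxcl2 at 332 and Cxcl16 at 105 CPM per kb. In fibroblasts it began with Cxcl1 at 3450 CPM per kb, Cxcl12 at 455 and Cxcl14 at 317 CPM per kb. In keratinocytes Cxcl14 came first at 191 CPM per kb, followed by Cxcl1 at 46.7 CPM per kb. With the shortest transcripts in place of the longest, Cxcl12 in fibroblasts came to 1360 CPM per kb and the leading gene of each population was the same.

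**Figure D1:**
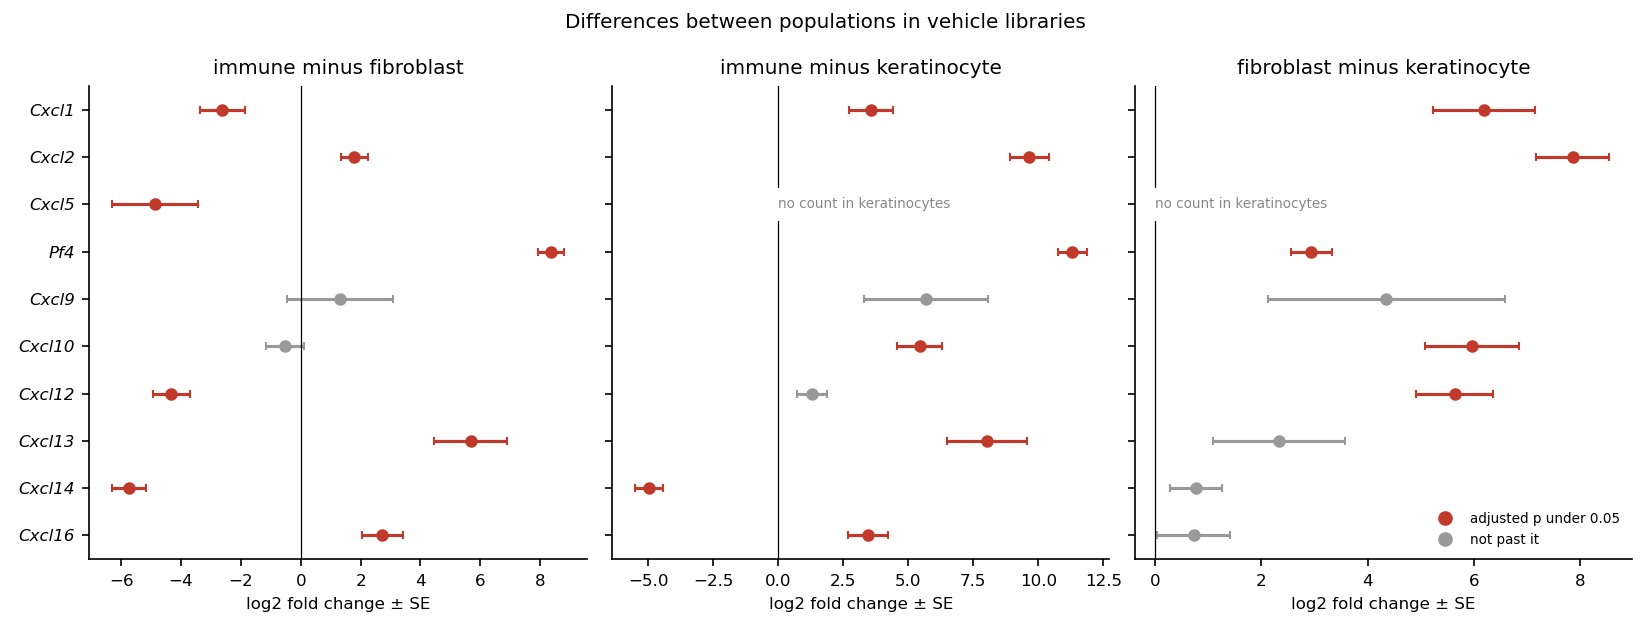
Log2 fold changes ± SE of the 10 ligands between populations in vehicle libraries (8 immune, 8 fibroblast, 7 keratinocyte), with a panel for each pair of populations on its own scale and in red the differences with an adjusted p under 0.05. Pf4, Cxcl13, Cxcl16 and Cxcl2 lie to the right in the first panel and Cxcl14, Cxcl5, Cxcl12 and Cxcl1 to the left; Cxcl5 is not drawn against keratinocytes, where it had no count.

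The second question was how each ligand stood in PTX males. In immune cells Cxcl2, Cxcl10 and Cxcl16 were higher in PTX males than in vehicle males, by 2.78-fold, 5.13-fold and 2.69-fold in the fit, and Cxcl12 and Cxcl14 were lower. Pf4 and Cxcl1, the most abundant ligands of vehicle immune cells per length of transcript, did not pass the test. Of the 9 ligands tested (Cxcl5 had too few counts), 3 were called higher, where 0.956% of the 12131 genes tested were, and 2 lower, where 4.56% were. Their median log2 fold change was 1.43, beside 0.1 over all genes. Over all genes, 116 were called higher and 553 lower, and with plain CPM (library sizes only) 37 were called higher and 607 lower, with the same numbers of ligands in each direction; limma with voom called 37 higher and 1 lower (3 ligands higher and none lower), and a fit with the replicate block 40 higher and 108 lower (also 3 and none). The PTX and vehicle male libraries did not overlap for those 5 ligands, and did not overlap for 13.9% of all genes tested. Other measures of the libraries moved with these groups: the TMM factors were 0.770 to 0.931 in PTX males and 1.06 to 1.14 in vehicle males, and fewer genes had more than 10 counts in every PTX library than in any vehicle one. Their part in the ligand differences was not tested.

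Cxcl16 stood at 725, 496, 632 and 594 CPM in immune cells of PTX males, against 294.5, 179, 199 and 228 CPM in those of vehicle males. The lowest PTX library was above the highest vehicle male one, and the log2 fold change was 1.43 ± 0.24 (SE, adjusted p = 0.00756, edgeR's quasi-likelihood test). Vehicle females, at 414, 333, 391 and 236 CPM, lay below all PTX libraries and overlapped vehicle males. Cxcl2 stood at 949.8, 994, 1395 and 1870 CPM in PTX males, against 434, 529, 361 and 530.3 CPM in vehicle males, with 548 to 1009 CPM in vehicle females. Here too no PTX library reached down to the vehicle males, while the vehicle females lay above those males and overlapped the PTX libraries, and the log2 fold change was 1.47 ± 0.26 (adjusted p = 0.00944, edgeR). Cxcl10 stood at 197, 364, 257 and 610.4 CPM in PTX males, against 79.5, 68.8, 44.8 and 81.8 CPM in vehicle males, with 47.9 to 171 CPM in vehicle females. Every PTX library exceeded every vehicle library of either sex, and the log2 fold change was 2.36 ± 0.45 (adjusted p = 0.0125, edgeR). The call for Cxcl10 was lost without vehicle male 2 (adjusted p = 0.0508) or vehicle male 3 (adjusted p = 0.0525). The 8 dendritic and Langerhans cell markers summed to 17900 to 36100 CPM in immune cells of PTX males and 6290 to 10400 CPM in those of vehicle males, and the 10 macrophage markers to 17800 to 32700 CPM and 14700 to 20000 CPM; their part in these differences was not tested. Per 100 counts of the macrophage markers, Cxcl10 came to 1.11 to 1.87 counts in PTX males and 0.279 to 0.556 in vehicle males. On the same measure Cxcl2 came to 3.84 to 6.0 and 2.17 to 3.61, and Cxcl16 to 1.82 to 4.07 and 1.09 to 1.55. Vehicle females held 0.311 to 0.682 counts of Cxcl10, 2.33 to 3.58 of Cxcl2 and 0.823 to 2.16 of Cxcl16. For Cxcl16 they overlapped the PTX males. No ratio to the dendritic and Langerhans cell markers was taken. Their median sums were 22400 CPM in PTX males and 8760 CPM in vehicle males, against 24600 and 16200 CPM for the macrophage markers. The macrophage ratios thus leave the dendritic and Langerhans cell markers unaccounted for.

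Cxcl14 stood at 0.902, 0.265, 0.621 and 0.601 CPM in immune cells of PTX males (4 to 11 counts), against 45.2, 46.4, 36.8 and 49.2 CPM in those of vehicle males (674 to 1022 counts). Cxcl12 stood at 7.87, 28.5, 68.4 and 3.52 CPM in PTX males, against 131, 230.1, 190.3 and 657 CPM in vehicle males. Both ligands, which fibroblasts make at far higher levels, thus lay below every vehicle male library in every PTX library. The log2 fold changes were -6.22 ± 1.32 for Cxcl14 (adjusted p = 0.0192, edgeR) and -3.50 ± 0.91 for Cxcl12 (adjusted p = 0.0415). Vehicle females were low as well, at 0.533 to 6.92 CPM for Cxcl14 and 18.8 to 120 CPM for Cxcl12. The 10 fibroblast markers were likewise highest in vehicle males. They summed to 251 to 1580 CPM in PTX males, 104 to 421 CPM in vehicle females and 4730 to 10400 CPM in vehicle males. All 10 had counts in each group. Between PTX males and vehicle females the ranges overlapped, and the fibroblast markers had the reverse order of the ligands. The medians were 770 and 191 CPM for these markers, 0.611 and 1.11 CPM for Cxcl14 and 18.2 and 38.3 CPM for Cxcl12. Medians of other marker lists are given for immune libraries of PTX males, vehicle females and vehicle males. Those of endothelial (0.775, 94.9 and 235 CPM) and pericyte and smooth muscle markers (34.9, 495 and 696 CPM) had the order of the ligands. Differentiated keratinocyte markers did too (0.738, 28.9 and 47.4 CPM). Those of basal keratinocyte (84.1, 73.3 and 394 CPM) and skeletal muscle markers (60.2, 24.3 and 749 CPM) had the order of the fibroblast markers. Per 100 counts of the fibroblast markers, immune libraries of PTX males held 0.0394 to 0.36 counts of Cxcl14 and those of vehicle males 0.475 to 0.981. Fibroblast libraries held 0.343 to 0.566 in PTX males, 0.52 to 0.792 in vehicle females and 0.594 to 1.32 in vehicle males. For Cxcl12 the ratios in immune libraries overlapped, at 0.314 to 6.83 in PTX males and 2.66 to 6.34 in vehicle males. Immune libraries of vehicle females held 4.46 to 64.3 counts of Cxcl12 and 0.347 to 1.65 of Cxcl14. The part of fibroblasts and of the other cell types in these differences was not tested. Both calls were lost with limma and voom (adjusted p = 0.35 for Cxcl12 and 0.172 for Cxcl14), with a replicate block (0.0913 and 0.075, edgeR) and against vehicle males and females pooled (0.119 and 0.0747, edgeR), and that of Cxcl12 with only the PTX and vehicle males in the fit (0.0565). The Cxcl12 call was also lost without any of vehicle males 2, 3 and 4 or PTX males 1, 2 and 4 (adjusted p up to 0.126), and the Cxcl14 call without vehicle male 2 (adjusted p = 0.0538).

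Cxcl13 stood at 164, 246, 19.9 and 764 CPM in immune cells of PTX males, against 28.4, 107, 34.1 and 29.0 CPM in those of vehicle males. PTX library 3 was below all vehicle male libraries and the others were above them. The difference of 2.57 ± 0.91 on the log2 scale did not pass (95% interval 0.79 to 4.36, adjusted p = 0.114, edgeR). Pf4 ranged from 1500 to 6517 CPM in PTX males and from 2379 to 3526 CPM in vehicle males (log2 fold change 0.35 ± 0.35, 95% interval -0.34 to 1.04, adjusted p = 0.768). Cxcl1 ranged from 401 to 781 CPM in PTX males and from 479.8 to 859.9 CPM in vehicle males (0.02 ± 0.34, 95% interval -0.63 to 0.68, adjusted p = 0.993). Pf4 and Cxcl1 overlapped between the groups, and the intervals do not show that the groups were alike. Cxcl9 had 578 counts in immune cells of PTX male 4 and none in the other PTX libraries, so no level can be set for PTX males from it. Cxcl5 had 0 or 1 counts per PTX library and 0, 905, 196 and 33 counts in vehicle males.

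**Figure D2:**
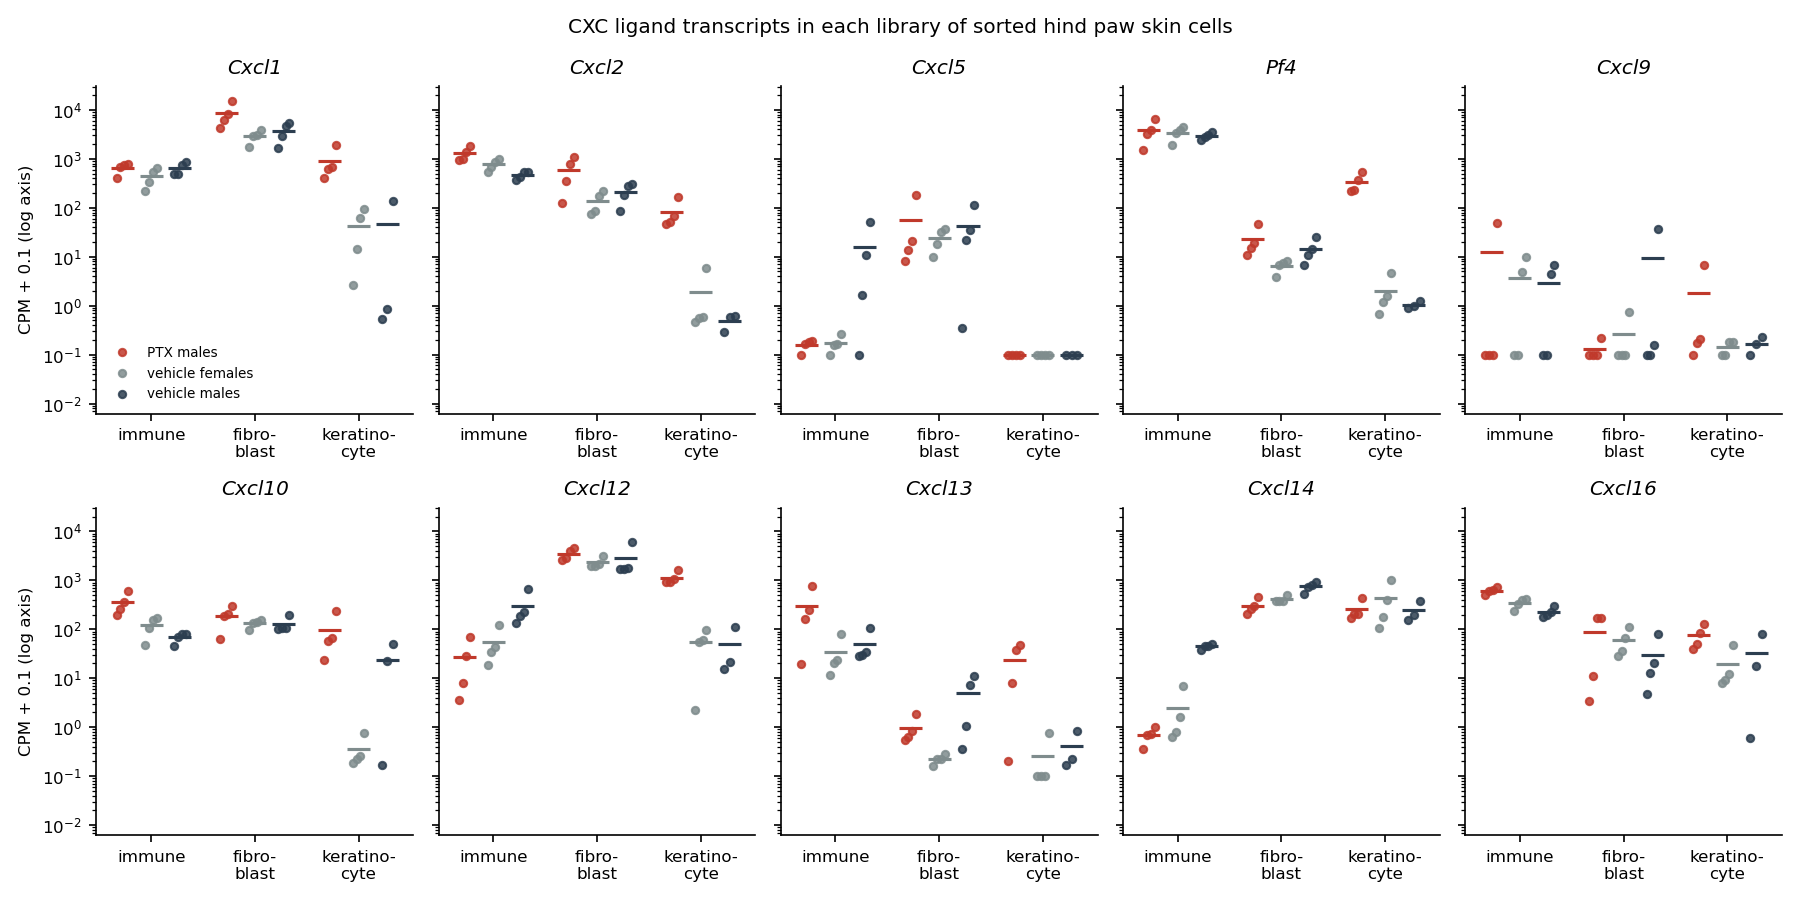
CPM + 0.1 on a log axis for each ligand in each library, by population, with PTX males left of vehicle females and vehicle males; points are libraries (n = 4, or 3 for keratinocytes of vehicle males) and bars are group means. In immune cells Cxcl2, Cxcl10 and Cxcl16 of PTX males lie above, and Cxcl12 and Cxcl14 below, all vehicle male libraries, and in keratinocytes Pf4 and Cxcl12 of PTX males lie above all vehicle libraries.

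Against vehicle females, no ligand in immune cells passed edgeR's test (0 of 9, where 1.76% of all genes were called); 4 had an unadjusted p under 0.05, DESeq2 called 3 and limma with voom 0. The values were 1.59 ± 0.44 for Cxcl10 (adjusted p = 0.0895), 0.84 ± 0.24 for Cxcl16 (adjusted p = 0.0974), 3.15 ± 0.93 for Cxcl13 (adjusted p = 0.112) and 0.77 ± 0.26 for Cxcl2 (adjusted p = 0.162). All had the sign seen against vehicle males, a comparison that shares the PTX libraries. Vehicle females and vehicle males did not pass for any ligand in edgeR's test (0 of 9, where 0.354% of all genes were called); 4 had an unadjusted p under 0.05, DESeq2 called 1 and limma with voom 3. The largest of these differences was that of Cxcl14, at -4.21 ± 1.20 for females minus males (adjusted p = 0.223, edgeR).

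In fibroblasts no ligand passed the test, and few genes of any kind did. Of the 8 ligands tested (Cxcl9 and Cxcl13 had too few counts), 0 were called by edgeR between PTX males and vehicle males, where 0.0184% of 10857 genes were; 3 had an unadjusted p under 0.05, and DESeq2 and limma with voom called 0. Cxcl14 stood at 294.5, 203, 453 and 262 CPM in PTX males, against 819, 514, 735 and 925 CPM in vehicle males and 378 to 506 CPM in vehicle females. Its PTX libraries lay below all vehicle male libraries, with a log2 fold change of -1.37 ± 0.33 (95% interval -2.02 to -0.73, unadjusted p = 0.000598 and adjusted p = 0.325, edgeR). It was the only ligand without overlap there, as were 3.2% of all genes tested. Col1a2 averaged 4950 ± 1470 CPM in the same fibroblast libraries of PTX males and 11200 ± 2720 CPM in those of vehicle males (SD, n = 4 each), and the pericyte marker Rgs5 ranged from 119 to 2370 CPM in PTX males and from 74.0 to 94.8 CPM in vehicle males. Per 100 counts of the 10 fibroblast markers, Cxcl14 came to 0.343 to 0.566 counts in PTX males and 0.594 to 1.32 in vehicle males. Vehicle females, at 0.52 to 0.792, overlapped both. The part of these markers in the fibroblast differences was not tested. Cxcl1 stood at 4203, 8067, 15260 and 6282 CPM in PTX males, against 1683, 2893, 4627 and 5368 CPM in vehicle males and 1768 to 3874 CPM in vehicle females. The lowest PTX library was above all female libraries but below the upper male ones, and the log2 fold change against vehicle males was 1.12 ± 0.35 (adjusted p = 0.468, edgeR). Cxcl2 ranged from 123 to 1075 CPM in PTX males and from 85.1 to 306 CPM in vehicle males (1.38 ± 0.61, adjusted p = 0.529). Cxcl12 ranged from 2662 to 4495 CPM in PTX males and from 1707 to 6060 CPM in vehicle males, where vehicle male 1 lay above the PTX libraries and the others below them (0.26 ± 0.35, 95% interval -0.42 to 0.95, adjusted p = 0.98). Cxcl5, Pf4, Cxcl10 and Cxcl16 had adjusted p-values of 0.946 to 0.995. Against vehicle females 0 ligands passed in fibroblasts (0.0276% of all genes; 2 with an unadjusted p under 0.05, 0 by DESeq2 and 0 by limma with voom). Between vehicle females and vehicle males 0 passed (0.0184% of all genes; 1 with an unadjusted p under 0.05, 0 by DESeq2 and 0 by limma with voom).

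In keratinocyte libraries Pf4 and Cxcl12 were higher in PTX males than in vehicle males. Of the 8 ligands tested (Cxcl5 and Cxcl9 had too few counts), 2 were called higher, where 1.15% of 10939 genes were, and none lower, where 0.302% were; 4 had an unadjusted p under 0.05, DESeq2 called 4 and limma with voom 2, of which Cxcl12 was not one. Cxcl1, Cxcl2, Cxcl12 and Pf4 did not overlap between the groups, as did 13.4% of all genes tested.

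Pf4 stood at 373, 549, 232 and 218 CPM in keratinocyte libraries of PTX males (1921 to 5216 counts), against 1.13, 0.868 and 0.792 CPM in those of vehicle males (7 to 18 counts) and 0.576 to 4.52 CPM in those of vehicle females. The lowest PTX library lay far above the highest vehicle library, and the log2 fold change was 8.40 ± 1.34 (adjusted p = 0.00188, edgeR). Cxcl12 stood at 923, 1068, 930.5 and 1604 CPM in PTX males, against 21.1, 15.6 and 111 CPM in vehicle males and 2.1 to 98.7 CPM in vehicle females. No vehicle library came near the PTX ones, and the log2 fold change was 4.48 ± 0.95 (adjusted p = 0.0175, edgeR). The Cxcl12 call against vehicle males was lost without vehicle male 1 (adjusted p = 0.0798), vehicle male 2 (adjusted p = 0.0882) or PTX male 4 (adjusted p = 0.0584), and with limma and voom (4.49, adjusted p = 0.0687). Against vehicle females both were called as well (7.66 ± 1.14 for Pf4, adjusted p = 0.000801; 4.42 ± 0.84 for Cxcl12, adjusted p = 0.00682, edgeR), 2 of 8 ligands where 1.55% of all genes were called.

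Markers of other cells were higher in the same PTX keratinocyte libraries. The 8 pan-immune markers summed to 706 to 1100 CPM in PTX males and 6.96 to 44.9 CPM in vehicle males, the 10 fibroblast markers to 12300 to 15800 CPM and 109 to 515 CPM, and the 8 endothelial markers to 1910 to 3080 CPM and 0.69 to 262 CPM. The 8 basal keratinocyte markers summed to 2840 to 10600 CPM in PTX males and 16400 to 23000 CPM in vehicle males. All pan-immune, fibroblast and endothelial markers had counts in PTX libraries, and in vehicle males Mfap5, Cdh5 and Tek had none. Per 100 counts of fibroblast markers, keratinocyte libraries of PTX males held 5.84 to 11.8 counts of Cxcl12, and fibroblast libraries of PTX males held 4.71 to 6.6. Per 100 counts of macrophage markers, keratinocyte libraries of PTX males held 10.4 to 72.7 counts of Pf4, and immune libraries of PTX males held 8.42 to 19.9. The part of such cells in the ligand differences was not tested.

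Cxcl1 stood at 399, 1933, 624 and 677 CPM in keratinocyte libraries of PTX males, against 138, 0.744 and 0.432 CPM in those of vehicle males, with vehicle male 1 far above the other two. The log2 fold change of 4.14 ± 1.71 did not pass (adjusted p = 0.276, edgeR), and it did without vehicle male 1. Cxcl2 stood at 47.5, 51.1, 69.3 and 163 CPM in PTX males, against 0.188, 0.496 and 0.504 CPM in vehicle males (3, 4 and 7 counts), and did not pass (adjusted p = 0.205), though the groups were far apart. It passed the filter there through its PTX libraries, with 3 to 9 counts in each library of vehicle females. Cxcl10 stood at 58.3, 234, 23.3 and 66.4 CPM in PTX males, against 22.7, 49.2 and 0.072 CPM in vehicle males and 1 or 2 counts in each library of vehicle females (adjusted p = 0.895 against males and 0.0888 against females). Cxcl13 stood at 37.7, 0.105, 7.99 and 47.1 CPM in PTX males, against 0.753, 0.124 and 0.072 CPM in vehicle males (adjusted p = 0.424). Cxcl14, the main ligand of vehicle keratinocytes, ranged from 171 to 442 CPM in PTX males and from 151 to 384 CPM in vehicle males, with full overlap and a log2 fold change of 0.02 ± 0.66 (95% interval -1.28 to 1.32, adjusted p = 1, edgeR). Per 100 counts of basal keratinocyte markers, Cxcl14 came to 1.61 to 15.6 counts in PTX males, 0.451 to 5.16 in vehicle females and 0.658 to 1.89 in vehicle males. Cxcl16 ranged from 39.0 to 125 CPM in PTX males and from 0.496 to 81.4 CPM in vehicle males (adjusted p = 0.971). Vehicle females and vehicle males differed in 0 of 8 ligands (0.00914% of all genes called by edgeR; 1 ligand with an unadjusted p under 0.05, 1 called by DESeq2 and 0 by limma with voom).

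**Figure D3:**
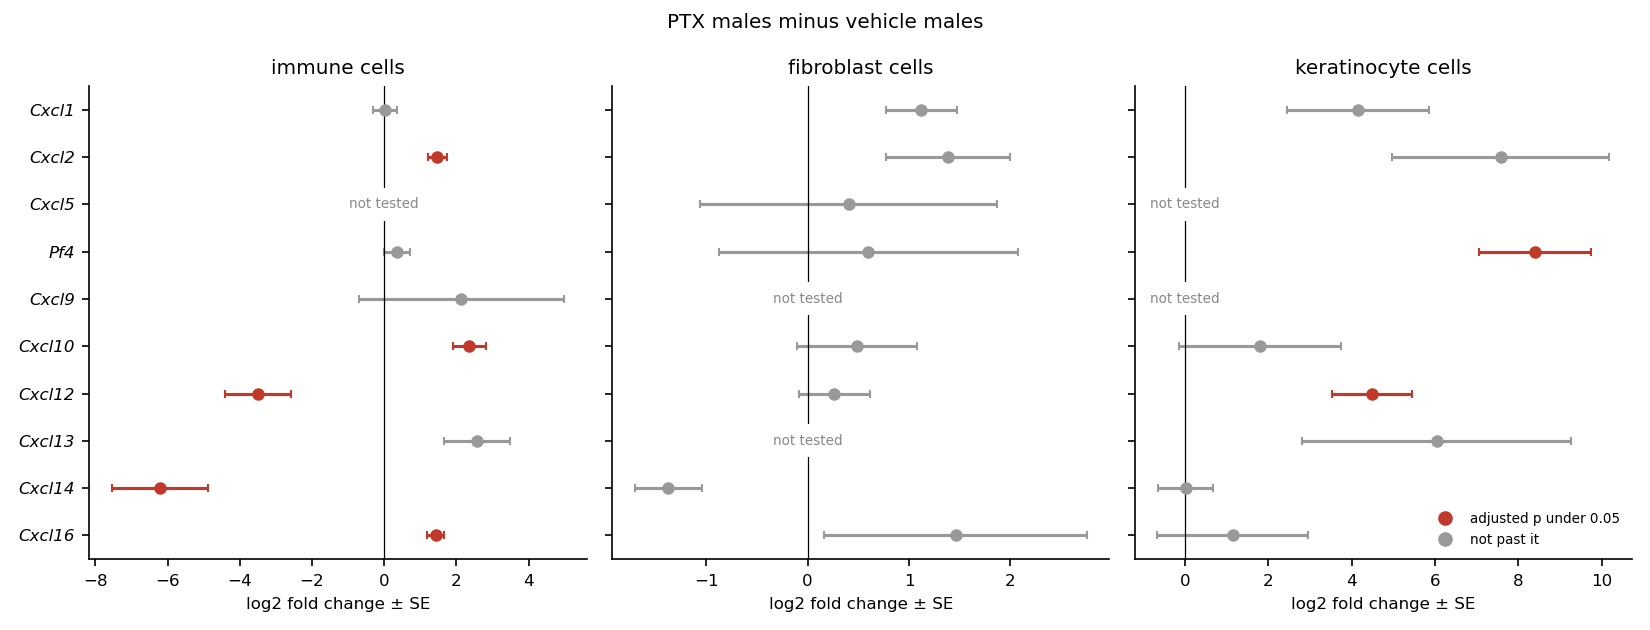
Log2 fold changes ± SE of the ligands, PTX males minus vehicle males, with a panel for each population on its own scale; red marks an adjusted p under 0.05 and ligands with too few counts are marked as not tested. Red points are Cxcl2, Cxcl10, Cxcl16, Cxcl12 and Cxcl14 in immune cells and Pf4 and Cxcl12 in keratinocyte libraries, with none in fibroblasts.

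**Figure D4:**
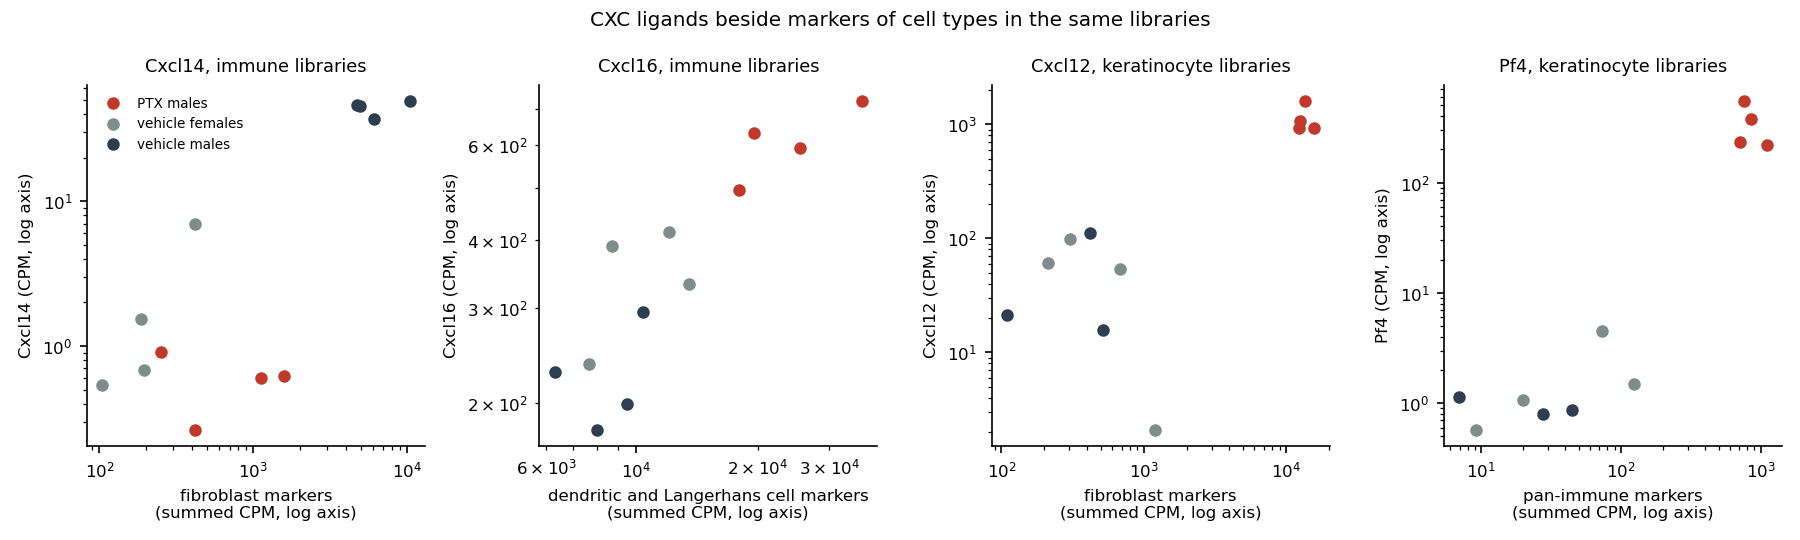
Ligand CPM against the summed CPM of a marker list in the same library, both on log axes: Cxcl14 and Cxcl16 in immune libraries and Cxcl12 and Pf4 in keratinocyte libraries, with PTX males in red, vehicle females in grey and vehicle males in dark blue (1 point per library). In immune libraries the vehicle males lie at 4730 to 10400 CPM of fibroblast markers, and in keratinocyte libraries the PTX males lie at 12300 to 15800 CPM of them, apart from all other libraries.

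The size of the PTX effect, PTX males minus vehicle males, was then set against that of another population by fitting 2 populations together with an interaction. Of 10 ligands tested between immune cells and fibroblasts, 1 was called with a higher effect in immune cells and 2 with a lower one, where 0.36% and 3.15% of 13329 genes were. Cxcl14 differed by -4.68 ± 0.83 on the log2 scale (adjusted p = 0.000766, edgeR) and Cxcl12 by -3.67 ± 0.91 (adjusted p = 0.0203), and both were lost with limma and voom (adjusted p = 0.158 and 0.453). The PTX effects on Cxcl2, Cxcl10 and Cxcl16 in immune cells were not distinguished from those in fibroblasts: the differences were 0.18 ± 0.70 (95% interval -1.20 to 1.55), 2.07 ± 0.76 (adjusted p = 0.128) and 0.01 ± 1.14 (95% interval -2.22 to 2.25). The call of a higher effect was that of Cxcl13 (5.41 ± 1.53, adjusted p = 0.0451, edgeR). Cxcl13 was not tested in fibroblasts alone and passed the filter here through the immune libraries, so its fibroblast side rests on 5 to 15 counts per library in PTX males and 3 to 186 in vehicle males. The call was lost with RLE size factors (adjusted p = 0.0599), without a filter (0.068), with limma and voom (0.653), with a replicate block (0.0818), with plain CPM (0.0645) and in 11 of the 16 fits that left out a library, and no difference is drawn from it.

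Between immune cells and keratinocytes, 0 ligands had a higher effect in immune cells and 4 a lower one, where 0.347% and 9.26% of 13829 genes had; 5 had an unadjusted p under 0.05, DESeq2 called 5 and limma with voom 2. These were Pf4 (-7.85 ± 0.74, adjusted p = 1.08e-07), Cxcl2 (-5.94 ± 0.99, adjusted p = 0.000232), Cxcl12 (-7.80 ± 1.47, adjusted p = 0.00107) and Cxcl14 (-6.06 ± 1.26, adjusted p = 0.00309, edgeR). With voom, Pf4 (adjusted p = 0.856) and Cxcl2 (adjusted p = 0.239) were lost. Between fibroblasts and keratinocytes, 3 of the 8 with an estimate had a lower effect in fibroblasts, where 3.0% of 13084 genes had, and none a higher one, where 0.313% had; 4 had an unadjusted p under 0.05, DESeq2 called 4 and limma with voom 1. These were Cxcl2 (-6.13 ± 1.37, adjusted p = 0.00713), Pf4 (-7.75 ± 1.74, adjusted p = 0.00744) and Cxcl12 (-4.12 ± 0.95, adjusted p = 0.00949, edgeR); with voom Cxcl2 (adjusted p = 0.101) and Cxcl12 (adjusted p = 0.553) were lost. The comparisons share their libraries, and all of those with keratinocytes rest on the PTX keratinocyte libraries that also held fibroblast and immune markers. For Cxcl2 the keratinocyte side rests on 3 to 7 counts per library in vehicle males, too few to pass the filter there. Cxcl2 also did not pass in keratinocyte libraries alone (adjusted p = 0.205 against vehicle males, edgeR), so no difference is drawn from its calls.

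The rest of the pathway was read from lists of receptors, inducers and proteases, described by counts of members called. Of 8 receptors listed, 7 were tested in immune cells, where 1 was higher and 1 lower in PTX males than in vehicle males (median -1.06, beside 0.1 over all genes), and 0.956% of all genes were called higher and 4.56% lower. Cxcr6, the receptor of Cxcl16, stood at 172.5 ± 106 CPM in PTX males and 28.0 ± 3.98 CPM in vehicle males (SD, n = 4 each; log2 fold change 2.60 ± 0.65, adjusted p = 0.0369, edgeR). The 6 T cell markers found in the table summed to 230 to 444 CPM in PTX males, 61.6 to 318 CPM in vehicle females and 65.2 to 198 CPM in vehicle males, and their part in the Cxcr6 difference was not tested. Cxcr7, the scavenger of Cxcl12, stood at 1.55 ± 0.93 CPM and 105 ± 54.4 CPM (-6.10 ± 1.38, adjusted p = 0.0245). Cxcr7 averaged 651 to 863 CPM in the 3 fibroblast groups. Cxcr2, the receptor of Cxcl1 and Cxcl2, ranged from 0 to 35.3 CPM in immune cells of PTX males and from 0 to 52.5 CPM in those of vehicle males, and Cxcr3, the receptor of Cxcl10, from 0 to 23.5 CPM and from 10.4 to 31.7 CPM; neither passed. In keratinocyte libraries 1 of 5 receptors tested was called higher in PTX males, where 1.15% of all genes were: Darc (Ackr1), a decoy receptor of venular endothelium, stood at 81.7 to 279.7 CPM in PTX males and had 1 count over the 3 vehicle male libraries (adjusted p = 0.01, edgeR). Darc passed the filter there through its PTX libraries alone, whose endothelial marker sums are given above.

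Of 8 inducing cytokines, all tested in immune cells, 2 were higher in PTX males and none lower (median 1.8, beside 0.1 over all genes), with the same 0.956% and 4.56% of all genes called. Il1b stood at 3465 ± 1456 CPM in PTX males and 1018 ± 304 CPM in vehicle males (1.75 ± 0.35, adjusted p = 0.015, edgeR), and Tnf at 1672 ± 632 CPM and 492 ± 77.2 CPM (1.75 ± 0.34, adjusted p = 0.0133; SD, n = 4 each). Both cytokines induce Cxcl1 and Cxcl2 in many cell types. Of 8 NF-kB factors and inhibitors, 3 were higher, where 0.956% of all genes were: Tnfaip3 (1.64 ± 0.18, adjusted p = 0.000748), Nfkbia (0.99 ± 0.17, adjusted p = 0.00756) and Rel (1.22 ± 0.25, adjusted p = 0.018). Tnfaip3 and Nfkbia encode inhibitors that NF-kB itself induces. None of 6 interferon signalling factors passed edgeR's test in immune cells (median 0.62), among them Irf1, which averaged 857 CPM in PTX males and 561 CPM in vehicle males. Of 6 ligand processing proteases, 1 was lower, where 4.56% of all genes were: Mmp2, which cleaves Cxcl12, stood at 9.18 ± 3.8 CPM in PTX males and 368 ± 199 CPM in vehicle males (-5.34 ± 0.69, adjusted p = 0.00207), against 4394 to 6470 CPM on average in the fibroblast groups. Against vehicle females, Il1b (1.90 ± 0.35, adjusted p = 0.0241) and Tnfaip3 (1.04 ± 0.18, adjusted p = 0.0183) were also called higher in immune cells of PTX males.

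In fibroblasts none of the pathway genes tested passed, where 0.0184% of all genes did. In keratinocyte libraries 1 gene of each of 3 lists was called higher, where 1.15% of all genes were. Il6, of 3 inducing cytokines tested, stood at 321 to 1476 CPM in PTX males and 0.248 to 0.432 CPM in vehicle males (adjusted p = 0.000164, edgeR). The vehicle male values of Il6 were near the floor and too low to pass the filter. Il6 was thus tested through other keratinocyte libraries, among them those of PTX males. Irf1, of 4 interferon signalling factors tested, stood at 252 to 890.1 CPM in PTX males and 0.124 to 7.21 CPM in vehicle males (adjusted p = 0.0132). Nfkbia, of 8 NF-kB factors and inhibitors, stood at 1778 to 3249 CPM in PTX males and 318 to 413 CPM in vehicle males (2.53 ± 0.58, adjusted p = 0.0304). Fibroblasts of PTX males averaged 1026 CPM of Il6, 2291 CPM of Irf1 and 5721 CPM of Nfkbia.

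**Figure D5:**
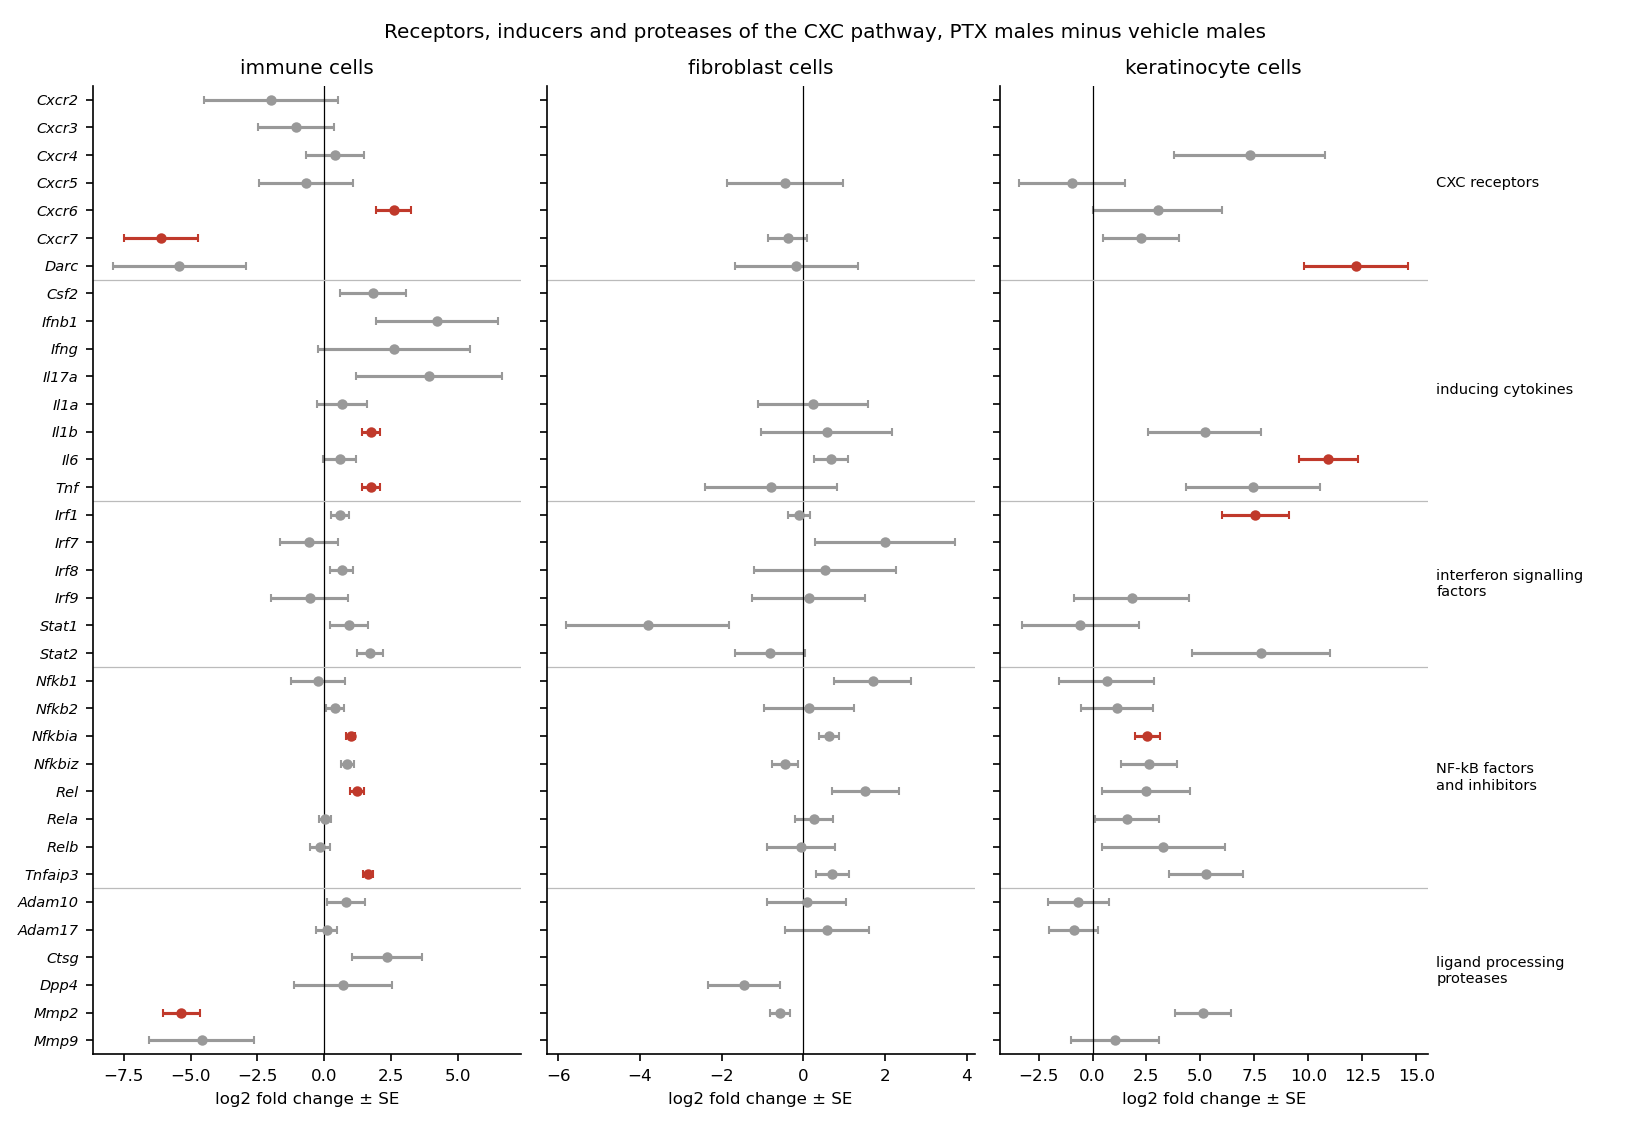
Log2 fold changes ± SE of receptors, inducing cytokines, interferon and NF-kB factors and proteases, PTX males minus vehicle males, with a panel for each population on its own scale, the lists separated by grey lines and red marking an adjusted p under 0.05. Rows without a point had too few counts for the test; in immune cells Cxcr6, Il1b, Tnf, Nfkbia, Rel and Tnfaip3 lie to the right in red and Cxcr7 and Mmp2 to the left, and the fibroblast panel has no red point.

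Over the whole family, the 10 ligands held a median of 0.613% of gene counts in immune cells of PTX males, 0.564% in those of vehicle females and 0.542% in those of vehicle males, with overlapping ranges. In fibroblasts the share ranged from 0.678 to 1.31% in PTX males, 0.557 to 0.595% in vehicle females and 0.499 to 0.627% in vehicle males. Cxcl1 alone stood at 3796 to 9313 plain CPM in fibroblasts of PTX males, and no ligand passed there. In keratinocyte libraries it ranged from 0.303 to 0.445% in PTX males, 0.0306 to 0.118% in vehicle females and 0.0329 to 0.0722% in vehicle males. Genes closest in pattern to the other called ligands were Plekho2, St6galnac4 and Pid1 for Cxcl2 (0.53 to 0.69), Ppt1, Coq10b and Herpud1 for Cxcl10 (0.61 to 0.69) and Ifi30, Pepd and Rasgrp4 for Cxcl16 (0.34 to 0.52), over the 9 group means.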

How the data were processed

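RNA of sorted immune cells, fibroblasts and keratinocytes was read as single ends of 50 bases from stranded mRNA libraries, per the labels' protocols. The authors deposited a table of whole-number read counts per gene symbol for each library. The submitters' processing notes name bcl2fastq, TopHat2, HTSeq and mm9; versions, annotation and strand use: not given in the sources used here. Rows that name no gene stayed out of library sizes. Counts were tested with edgeR 4.0.16 in R 4.3.3 (TMM scaling, filterByExpr, robust quasi-likelihood test, two-sided, Benjamini-Hochberg adjustment over all genes at 0.05), with 1 fit per population over its 3 groups, 1 over the 23 vehicle libraries and 1 for each pair of populations for differences between PTX effects. Standard errors are the log2 fold change divided by the square root of F. Limma 3.58.1 with voom, DESeq2 1.42.0, other scalings, no filter, a replicate block and leaving out each library were alternatives. Gene counts per library ranged from 988712 to 20809036; intervals and floors cover counting or replicate error only. The 10 ligands, the pathway lists and the marker lists were chosen with earlier results of these data known. All 10 ligands are described; pathway genes were named by lowest p among those past the threshold, with at most 2 others as values, and genes alike in pattern by the smallest difference over the 9 groups among genes of at least 5 CPM in a group. Replicate libraries differed by more than sampling noise, so none were merged.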

Additional observations from a re-analysis of the deposited data

Results flagged for a closer look

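For normally distributed values, the rule for a library that stands apart flags about 1 in 20 groups by chance. CPM need not follow that distribution, so the number flagged is no measure of an excess. Of 61 groups of 4 libraries with a ligand at 5 CPM or more, 9 had a highest library that stood apart from the rest. In immune cells these were Cxcl9 in PTX male 4 (49.6 CPM, with no count in the other PTX libraries) and Cxcl13 in vehicle male 2 (106.9 CPM). In fibroblasts they were Cxcl5 in PTX male 2 (181.6 CPM), Cxcl14 in vehicle female 3 (506.4 CPM), Cxcl9 in vehicle male 1 (37.35 CPM), Cxcl12 in vehicle male 1 (6060 CPM) and Cxcl10 in vehicle male 4 (193.0 CPM). In keratinocyte libraries they were Cxcl14 in PTX male 1 (441.9 CPM) and Cxcl16 in vehicle female 3 (47.74 CPM).

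The PTX effect was called as different between populations for 10 pairs of ligand and populations in edgeR's interaction test. Immune cells minus fibroblasts gave -3.67 for Cxcl12, 5.41 for Cxcl13 and -4.68 for Cxcl14 on the log2 scale; Cxcl13 had 5 to 15 counts in fibroblast libraries of PTX males, and its call was lost with 5 of the other settings and in 11 of 16 fits without a library. Immune cells minus keratinocytes gave -5.94 for Cxcl2, -7.80 for Cxcl12, -6.06 for Cxcl14 and -7.85 for Pf4. Fibroblasts minus keratinocytes gave -6.13 for Cxcl2, -4.12 for Cxcl12 and -7.75 for Pf4. Cxcl2 had 3 to 7 counts in keratinocyte libraries of vehicle males, and no difference is drawn from its calls.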

How the results depend on the processing

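Of 867 alternative fits of the 41 ligand values with a call, 808 kept the call, 59 lost it and 0 changed sign; of 1531 of the 91 values without one, 38 gained a call. In immune cells Cxcl2 and Cxcl16 stayed past the threshold between PTX males and vehicle males in all alternatives run, as did Pf4 in keratinocyte libraries. In immune cells the 5 ligands called between PTX males and vehicle males became 3 with voom and 3 with the replicate block (none of them lower), and 2 to 6 with a library left out (2 without vehicle male 2, 3 without vehicle male 3). Against vehicle males and females together 4 were higher and 0 lower. Over all genes, the 116 higher and 553 lower became 37 and 1 with voom and 40 and 108 with the block. Both vehicle groups together gave 140 and 399, and fits without a library called 230 to 954 genes. Against vehicle females the count of 0 became 3 with DESeq2 and 0 to 1 with a library left out (1 without PTX male 3). Between vehicle females and males it became 1 with DESeq2, 3 with voom and 1 with only the 2 groups fitted. Genes called against vehicle females were 28 higher and 185 lower, 310 and 948 with DESeq2, and 8 to 520 with a library left out. Between vehicle females and males they were 8 and 35, 19 and 265 with DESeq2, 76 and 369 with voom and 14 and 152 with only those groups. In keratinocyte libraries the 2 called against vehicle males became 4 with DESeq2 and 1 to 2 with a library left out (1 without vehicle male 2 or PTX male 4), the 2 against vehicle females became 6 with DESeq2, 4 with voom and 4 with only those groups, and the 0 between females and males became 1 with DESeq2. Genes called higher and lower against vehicle males went from 126 and 33 to 1116 and 223 with DESeq2. Fits without a library called 84 to 121 genes. Against vehicle females, 144 and 26 became 801 and 218 with DESeq2, 405 and 63 with voom and 240 and 26 with only those groups. Between females and males, 1 and 0 became 396 and 157 with DESeq2. In vehicle males alone, 3 ligands were called between immune cells and fibroblasts and 5 between immune cells and keratinocytes, against 8 each with both sexes, and voom gave 5 for the second pair. Genes called higher and lower for the first pair were 691 and 217 in vehicle males alone, against 1869 and 1116 with both sexes. For the second pair they were 1796 and 173, against 3319 and 1214, and 3608 and 1306 with voom. With voom the differences between PTX effects gave 0 ligands for immune cells and fibroblasts, 2 for immune cells and keratinocytes and 1 for fibroblasts and keratinocytes. The cause of these changes was not tested. The median log2 fold change of all genes in fibroblasts, PTX males minus vehicle males, was 0.08 with TMM and 0.23 with RLE size factors. It was -0.12 there with the replicate block and -0.3 with voom. In immune cells it was 0.10 with TMM, -0.25 with plain CPM, -0.61 with the replicate block and -1.22 with voom. Plain CPM was added for the PTX comparisons after seeing the data.

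No pairing by replicate number was seen within a population. After centring on group means, same-numbered libraries of different groups had correlations of -0.056 to 0.098, and no pair exceeded 0.1. With 3 or 4 libraries per group this cannot exclude a pairing, and libraries of different populations were not compared. With the replicate block, Cxcl12 (adjusted p = 0.0913, edgeR) and Cxcl14 (adjusted p = 0.075) lost their calls in immune cells of PTX males against vehicle males. The block gave 2 ligands in keratinocyte libraries against either vehicle group and 0 in fibroblasts, 8, 8 and 6 between the populations, and 2, 4 and 3 for the differences between PTX effects. Genes called higher and lower with it in keratinocyte libraries were 95 and 24 against vehicle males and 106 and 25 against vehicle females. In fibroblasts they were 1 and 2, and 0 and 2. Between the populations they were 1586 and 933, 3057 and 918, and 2502 and 1231. For the PTX effects they were 13 and 255, 14 and 730, and 11 and 300.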
